A study of Homo sapiens with 6 samples.

Results

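The actin cytoskeleton genes described here were measured in human mammary epithelial cells given the hairpin of the microRNA miR-203a. They were LASP1, MICAL1, MICAL2, MICALL1, LIMA1, ZYX, PDLIM1, PDLIM5, PDLIM7 and ASAP1, picked by name as 10 of the 18999 listed features. LASP1 and MICAL2 were known beforehand to be among the largest differences between the groups. The values of the 10 genes in this contrast are therefore given as a description, without a p-value for any of them. Calls of these genes, made together with all tested features, are given too and are no test of them. The cells were MCF10A, an immortalised mammary epithelial line. The treated cells had been transduced with the retroviral construct pMSCVpuro-pre-miR-203a, and the controls with pMSCVpuro without an insert. Both kinds of cells were kept under puromycin selection, and each group had 3 libraries. The stated purpose of the study was to identify genes targeted by miR-203a. The labels do not say whether the transduced cells were pools or clones, or whether each library had a culture of its own, so p-values measure only the spread between libraries, which may be technical. The series text describes total RNA, whereas the labels' extract protocol has an AGO2 immunoprecipitation ahead of library preparation, and which applied could not be settled.

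LIM domains are zinc-binding protein modules that bring other proteins to actin filaments, stress fibres and cell adhesions. MICAL proteins are flavin-dependent monooxygenases that oxidise methionines of actin, which makes filaments come apart, and methionine sulfoxide reductases of the MSRB type reverse the reaction. LASP1 holds a LIM domain, nebulin repeats that bind actin and an SH3 domain that binds zyxin, and it gathers at focal adhesions and membrane ruffles. Of the 10 genes, ASAP1 encodes no LIM domain. It is an ARF GTPase-activating protein of focal adhesions and invadopodia that binds SRC.

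The miRNA and the places in these genes that could pair with its seed are shown first, since the study looked for its targets. The mature sequence is from RefSeq (GRCh38.p14; chromosome 14, 104117469 to 104117490, + strand), with the seed, bases 2 to 8, in capitals. The lines after it are 7-base matches in 3′ UTRs, taking for every gene the longest in GENCODE 29 (GRCh38), written 5′ to 3′ on the sense strand. Their capitals mark the matched bases, and each stretch ends at the base opposite base 1 of the miRNA.
miR-203a-3p: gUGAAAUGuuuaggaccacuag
LASP1: gtgaaatttgcctctgtccaaaCATTTCAt
MICALL1: accacgcccggccactagcctgaATTTCAA
PDLIM5: ttctctcaataataagtgaaccaATTTCAA

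The LASP1 match is a 7mer-m8, the letters CATTTCA, which pair with the whole seed. It lies on chromosome 17 at 38921546 to 38921552 (+ strand), at bases 2768 to 2774 of a 3′ UTR of 2992 nt. The MICALL1 and PDLIM5 matches are of the 7mer-A1 kind, the letters ATTTCAA, which pair with bases 2 to 7 and end in an A. MICALL1 has it on chromosome 22 at 37942811 to 37942817 (+ strand), at bases 1981 to 1987 of a 3′ UTR of 1992 nt. PDLIM5 has it on chromosome 4 at 94665786 to 94665792 (+ strand), at bases 1719 to 1725 of 4160 nt. ASAP1 holds 1 7mer-m8 and 3 6mer matches (ATTTCA) in a 3′ UTR of 2627 nt on chromosome 8. Thus 4 of the 10 genes held a 7mer, and none held an 8mer (CATTTCAA). Among 10178 tested protein-coding genes with an annotated 3′ UTR, 32.8% held a 7mer or 8mer. These matches overlap by design, and each gene was counted under its longest one.

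The other 6 genes had no match, not even a 6mer, in the longest 3′ UTR. MICAL2 was among them with 665 nt, and the same held for all 4 of its coding transcripts with a complete annotated 3′ UTR. PDLIM7 had 295 nt, ZYX 429 nt, PDLIM1 353 nt, MICAL1 129 nt and LIMA1 1276 nt, all below the median of 1404 nt over the tested protein-coding genes. In the coding sequence LIMA1 held an 8mer and PDLIM5 a 7mer, whereas LASP1 and MICAL2 held neither. A 7mer or 8mer was present in the coding sequence of 19.0% of 10188 tested protein-coding genes. With the shortest annotated 3′ UTR of each gene, 0 of the 10 held a 7mer. The LASP1 match was in 3 of its 4 coding transcripts with a complete annotated 3′ UTR. Which 3′ ends these cells used was not analysed here.

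**Figure D1:**
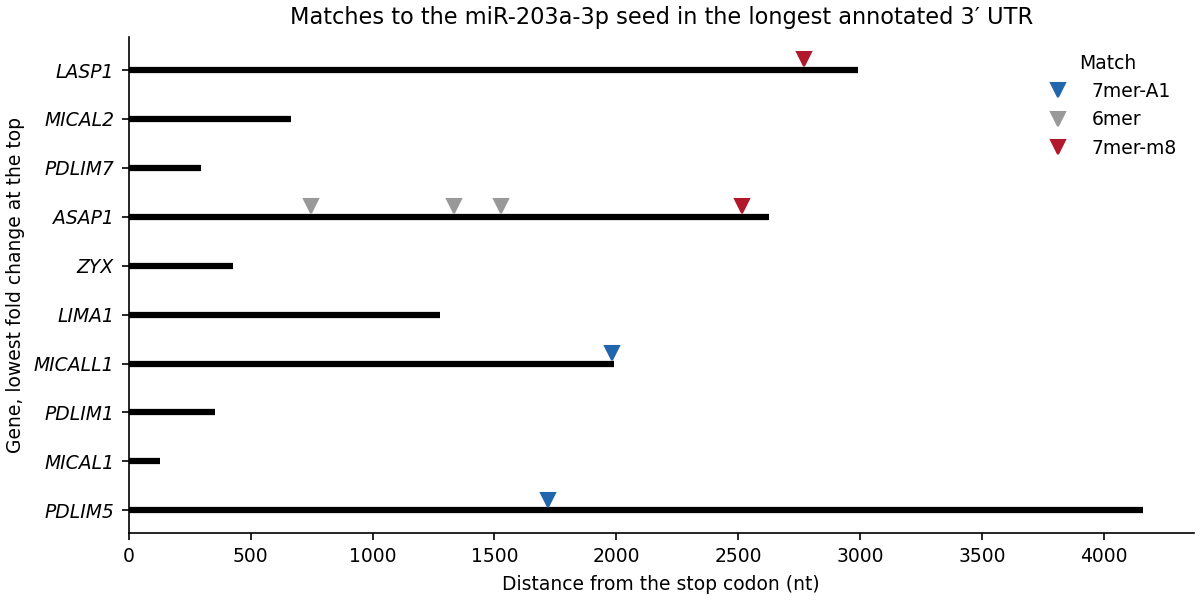
Longest annotated 3′ UTR of each gene as a bar in nt from the stop codon, with triangles at matches to the miR-203a-3p seed. Genes run from the lowest fold change (LASP1) at the top to the highest (PDLIM5) at the bottom. LASP1 and ASAP1 hold a 7mer-m8, MICALL1 and PDLIM5 a 7mer-A1, and MICAL2 and PDLIM7 no match.

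Reads over the listed features numbered from 7632063 in pre-miR-203a library 3 to 35084590 in empty-vector library 2. MIR203A, the hairpin in the vector, had 19005, 3699 and 24945 FPKM in the pre-miR-203a libraries, against 4.63, 5.44 and 6.96 FPKM in the empty-vector libraries. FPKM are reads scaled to feature length and library depth. Mitochondrially encoded genes took 5.04% to 7.04% of reads in the pre-miR-203a group and 4.16% to 8.55% in the empty-vector group. All 10 basal epithelial markers were listed, with a summed level of 1184 to 1574 FPKM in pre-miR-203a libraries and 1273 to 1540 FPKM in empty-vector libraries. The 8 luminal markers summed to 288 to 342 FPKM in pre-miR-203a libraries and 186 to 204 FPKM in empty-vector libraries, so their level moved with the groups, and their part in the results below was not tested. Leukocyte markers, 4 of 8 listed, summed to at most 0.560 FPKM in any pre-miR-203a library and 0.546 FPKM in any empty-vector library. Endothelial markers, 4 of 5 listed, summed to at most 0.419 FPKM in any pre-miR-203a library and 0.519 FPKM in any empty-vector library. Fibroblast markers, 5 of 8 listed, summed to 5.53 to 9.50 FPKM in pre-miR-203a libraries and 3.89 to 6.91 FPKM in empty-vector libraries. Smooth muscle and myoepithelial markers, 2 of 6 listed, summed to 12.1 to 22.7 FPKM in pre-miR-203a libraries and 12.6 to 22.0 FPKM in empty-vector libraries.

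In cells with pre-miR-203a, LASP1 and MICAL2 RNA stood at a ratio of 0.246 and 0.217 to the control level, PDLIM7 was lower by a smaller amount, and PDLIM1, PDLIM5, LIMA1, ZYX, MICAL1 and MICALL1 had higher group means than the controls. Fold changes are on the scale of log2(FPKM + 1), which draws in the changes of low genes, and were fitted with limma over the 11271 features that reached 1 FPKM in 3 libraries or more. All 10 genes were in that fit. With a threshold of 0.05 on the adjusted p, 3 of the 10 were called lower and 0 higher, against 15.8% of all tested features called in either direction, 9.18% lower and 6.59% higher. Those shares are 1035 lower and 743 higher features, and with TPM in place of FPKM 1005 were lower and 434 higher. Limma-voom on recovered reads also called 3, against 17% of all tested features. At an unadjusted limma p under 0.05 there were 5 of 10, against 30.1% of all tested features. Since the contrast entered the choice of the genes, nothing is read from these counts. The library values of the groups did not overlap for 4 of the 10, all lower in pre-miR-203a cells, against 37.5% of all tested features in either direction and 20.9% lower. In bulk RNA, fewer cells of a kind and less RNA per cell cannot be told apart. If the AGO2 immunoprecipitation of the extract protocol applied, all values here would be of RNA bound to AGO2 and not of total RNA.

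LASP1 (ENSG00000002834.18; chromosome 17, 38869859 to 38921770, + strand) had 15.6, 12.7 and 17.3 FPKM in the pre-miR-203a libraries, against 60.1, 61.5 and 63.7 FPKM in the empty-vector libraries. Every pre-miR-203a library lay far below every control library, and the controls were within a few FPKM of each other. The values rested on 1839, 1861 and 932 reads in the pre-miR-203a group and 6675, 15225 and 12921 reads in the empty-vector group. The mean was 15.2 ± 2.35 FPKM in pre-miR-203a cells and 61.8 ± 1.82 FPKM in empty-vector cells (SD, n = 3 each). This is a ratio of 0.246 and a log2 fold change of −1.96 ± 0.13 (SE), the fifth lowest among the 11271 tested features. Between libraries with the same replicate number the ratio was 0.260, 0.206 and 0.271. The authors' deposited table, once its sign is turned so that pre-miR-203a is on top, gave −2.01 with an SE of 0.17. An annotated antisense RNA overlaps a LASP1 exon, and its reads could not be told apart because no strand setting was given in the sources used here.

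MICAL2, the family member known to act in the nucleus on the actin pool that controls the SRF coactivators MRTF (ENSG00000133816.15; chromosome 11, 12094008 to 12359144, + strand), had 2.43, 2.21 and 2.96 FPKM in the pre-miR-203a libraries. It had 10.2, 9.33 and 15.6 FPKM in the empty-vector libraries, of which library 3 was the highest. The groups did not overlap, and the control libraries spread more than those of LASP1. Reads numbered 817, 930 and 456 in the pre-miR-203a group and 3223, 6607 and 9048 in the empty-vector group. The mean was 2.53 ± 0.38 FPKM in pre-miR-203a cells and 11.7 ± 3.41 FPKM in empty-vector cells (SD, n = 3 each), a ratio of 0.217. The log2 fold change was −1.82 ± 0.20 (SE), the eighth lowest of all tested features, and −2.21 with limma-voom on recovered reads. It was −1.61 without empty-vector library 3, where the control mean was highest. The authors' deposited table gave −2.20 with an SE of 0.25. The length used for MICAL2 was 20191 bases, the joined exons of all its annotated transcripts, which lowers its FPKM against genes with fewer transcripts. An annotated antisense RNA overlaps its exons too.

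The other catalytic MICAL genes were not called in either direction. MICAL1, which also carries the monooxygenase and LIM domains, had 5.38, 4.23 and 3.70 FPKM in the pre-miR-203a libraries, against 4.29, 3.16 and 2.08 FPKM in the empty-vector libraries. The groups overlapped, library 3 was the lowest of either group, and the log2 fold change was 0.40 ± 0.22 (SE). Between libraries of the same number MICAL1 was higher with pre-miR-203a in each case, at ratios of 1.25, 1.34 and 1.78. MICAL1 had the fewest reads of the 10 genes, 193 to 758, and part of an exon of ZBTB24 on the same strand overlaps it. MICAL3, the remaining catalytic family member, averaged 2.90 ± 0.12 FPKM in pre-miR-203a cells and 2.64 ± 0.45 FPKM in empty-vector cells (log2 fold change 0.11 ± 0.13 SE; adjusted p = 0.64, limma).

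The makeup of MICAL RNA therefore differed between the groups. Of the summed FPKM of MICAL1, MICAL2 and MICAL3, MICAL2 made up 22.4%, 23.8% and 31.2% in the pre-miR-203a libraries, against 58.6%, 60.5% and 78.8% in the empty-vector libraries. MICAL1 made up 44.7% ± 5.33 in pre-miR-203a cells and 18.6% ± 7.34 in empty-vector cells (SD, n = 3 each). The sum itself was 9.87 ± 0.86 FPKM in pre-miR-203a cells and 17.5 ± 2.20 FPKM in empty-vector cells. By FPKM MICAL2 was the leading MICAL RNA in every empty-vector library, and MICAL1 in every pre-miR-203a library. The lead of MICAL1 rests on the lengths divided by, 6841 bases for MICAL1, 20191 for MICAL2 and 22444 for MICAL3. In reads MICAL1 (613, 603 and 193) was below MICAL2 and MICAL3 in every pre-miR-203a library.

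**Figure D2:**
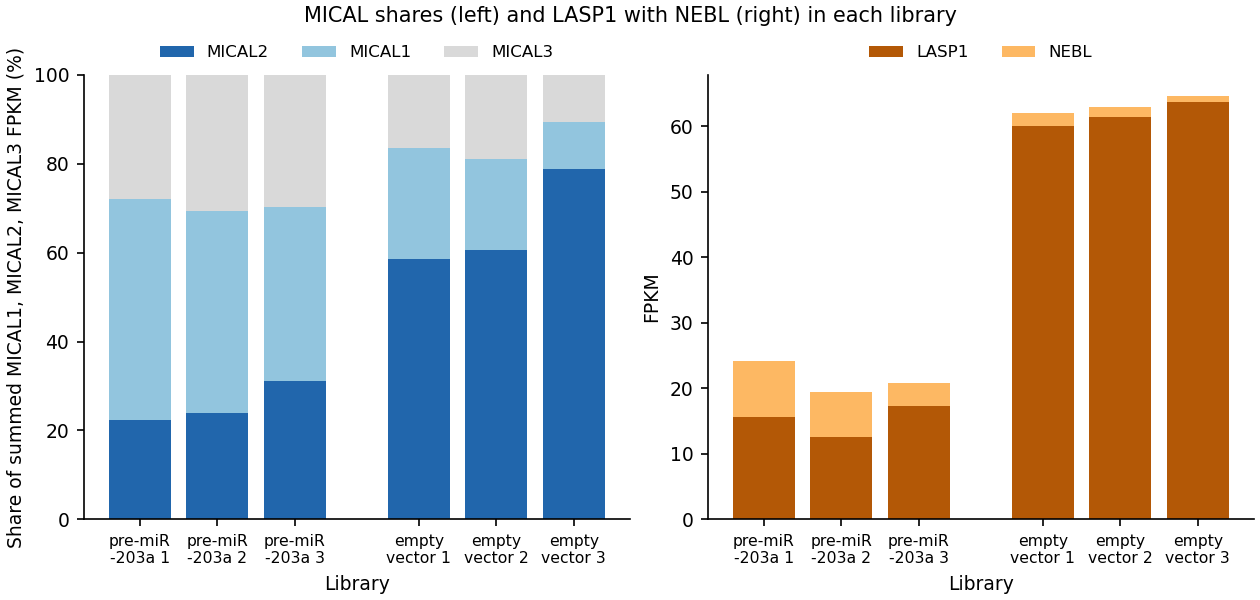
Left, share (%) of MICAL1, MICAL2 and MICAL3 in their summed FPKM for each library; right, FPKM of LASP1 and NEBL stacked for each library. MICAL2 makes up 22.4% to 31.2% in pre-miR-203a libraries and 58.6% to 78.8% in empty-vector libraries, and LASP1 is the larger part of its pair in all 6 libraries.

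MICALL1, which lacks the monooxygenase domain and works with EHD1 in endosomal recycling, had 31.4, 32.6 and 51.9 FPKM in the pre-miR-203a libraries, against 31.6, 32.0 and 32.0 FPKM in the empty-vector libraries. A single library, pre-miR-203a library 3, stood above the rest, and the other 5 were nearly level. The log2 fold change was 0.23 ± 0.19 (SE), and 0.01 without that library. ZYX, the gene of zyxin, which marks focal adhesions and strained stress fibres, had the same library apart. It had 65.7, 71.0 and 125 FPKM in the pre-miR-203a libraries and 76.0, 74.7 and 83.8 FPKM in the empty-vector libraries. Its log2 fold change was 0.10 ± 0.24 (SE), and −0.19 without pre-miR-203a library 3, so the sign rested on that library, which also had the fewest reads. ZYX and EPHA1 on the opposite strand share exonic bases.

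LIMA1, whose product EPLIN bundles filaments and links cadherin complexes to actin, had 46.4, 35.1 and 44.5 FPKM in the pre-miR-203a libraries, against 35.4, 29.6 and 47.6 FPKM in the empty-vector libraries. The groups overlapped over most of their range (log2 fold change 0.18 ± 0.19 SE). In both groups library 2 was the lowest.

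The PDZ-LIM genes differed among themselves. PDLIM7, or Enigma (ENSG00000196923.14; chromosome 5, 177483394 to 177497606, − strand), had 10.5, 9.02 and 11.9 FPKM in the pre-miR-203a libraries, against 19.6, 17.7 and 15.5 FPKM in the empty-vector libraries. The groups did not overlap, with 401 to 2737 reads behind the values. The log2 fold change was −0.70 ± 0.14 (SE), and 6.25% of tested features had a lower one. The call of PDLIM7 ended without pre-miR-203a library 1, empty-vector library 1 or empty-vector library 2, at log2 fold changes of the same sign.

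PDLIM1, which binds alpha-actinin, had 84.2, 66.1 and 81.9 FPKM in the pre-miR-203a libraries, against 70.2, 56.0 and 61.6 FPKM in the empty-vector libraries (log2 fold change 0.30 ± 0.14 SE). PDLIM5, or ENH, had 22.7, 16.8 and 21.0 FPKM in the pre-miR-203a libraries, against 15.6, 11.9 and 16.8 FPKM in the empty-vector libraries (log2 fold change 0.42 ± 0.17 SE). Both were higher in every pre-miR-203a library than in the control library of the same number, while the groups as wholes overlapped. PDLIM1 has 4 annotated pseudogenes, whose sharing of reads with it is uncertain. PDLIM2 and PDLIM4, the remaining listed genes of the family, had log2 fold changes of −0.04 ± 0.14 and 0.04 ± 0.17 (SE; adjusted p of 0.91 for each, limma). PDLIM7 made up 8.69% ± 0.46 of the summed FPKM of the 5 listed PDZ-LIM genes in pre-miR-203a cells and 16.4% ± 1.61 in empty-vector cells (SD, n = 3 each).

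ASAP1 had 14.8, 14.7 and 14.1 FPKM in the pre-miR-203a libraries, against 18.4, 18.0 and 19.2 FPKM in the empty-vector libraries. The groups did not overlap and each was tight, with a ratio of 0.784 and a log2 fold change of −0.33 ± 0.10 (SE). It was not among the called genes, and it was called without pre-miR-203a library 3. Of the 2 genes with a 7mer-m8, LASP1 had the lowest log2 fold change of FPKM + 1 of the 10 and ASAP1 the fourth lowest. By the ratio of mean FPKM, MICAL2 (0.217) was below LASP1 (0.246). The authors' deposited table also had MICAL2 lower (−2.20 against −2.01). The genes with a 7mer-A1, MICALL1 and PDLIM5, had higher means in pre-miR-203a cells, and MICAL2 and PDLIM7 were lower with no match. Since the contrast entered the choice of the genes, nothing is read from this order.

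**Figure D3:**
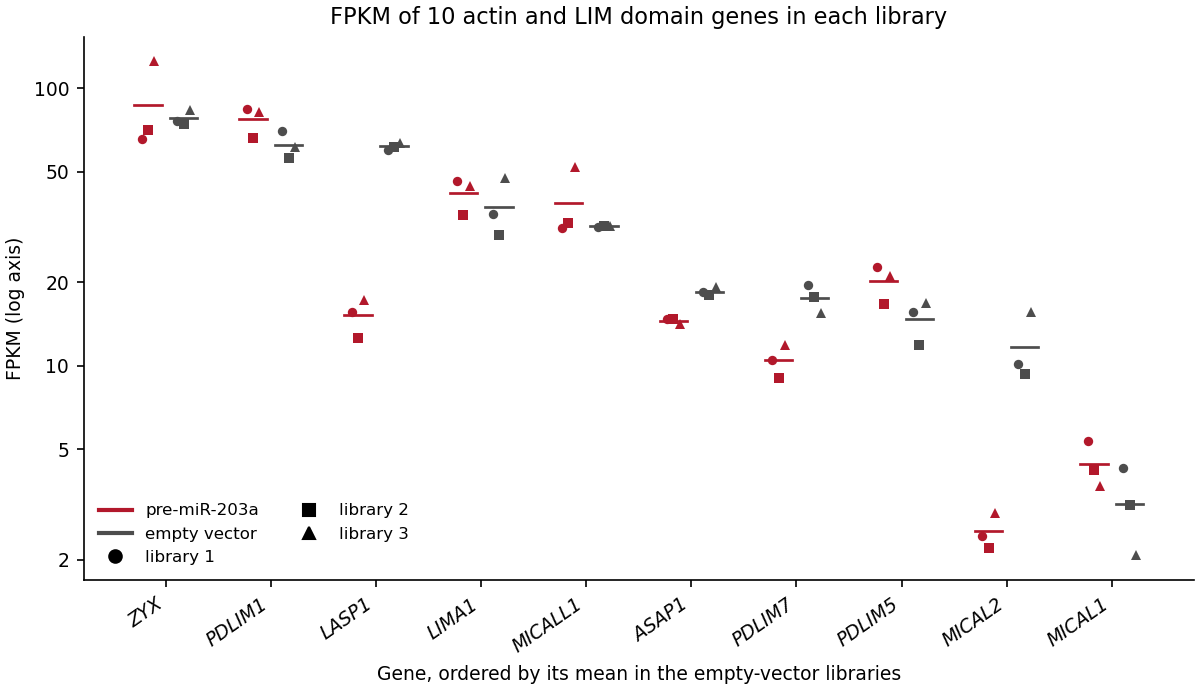
FPKM (log axis) of the 10 genes in each library, red for pre-miR-203a and grey for empty vector, with a bar at each mean and a symbol for each library number. LASP1, MICAL2, PDLIM7 and ASAP1 are lower in all pre-miR-203a libraries than in any empty-vector library. The red triangle of library 3 stands apart for ZYX (125 FPKM) and MICALL1 (51.9 FPKM).

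The order of levels is given in FPKM, which are per length of the joined exons, so genes with many annotated transcripts such as MICAL2 may stand low in it. Only ZYX and PDLIM1 kept their place in the 2 groups. LASP1 and PDLIM5 moved furthest, MICAL1 and MICAL2 changed places, and LIMA1, MICALL1, ASAP1 and PDLIM7 moved to a neighbouring place. In pre-miR-203a cells ZYX (87.2 FPKM) and PDLIM1 (77.4) led, followed by LIMA1 (42.0), MICALL1 (38.6), PDLIM5 (20.2), LASP1 (15.2), ASAP1 (14.5), PDLIM7 (10.5), MICAL1 (4.44) and MICAL2 (2.53). Neighbours whose library values overlapped there were ZYX with PDLIM1, LIMA1 with MICALL1, PDLIM5 with LASP1, and LASP1 with ASAP1. In empty-vector cells LASP1 (61.8 FPKM) came after ZYX (78.1) and PDLIM1 (62.6), and it was not separated from PDLIM1. LIMA1 (37.5), MICALL1 (31.9), ASAP1 (18.5), PDLIM7 (17.6), PDLIM5 (14.8), MICAL2 (11.7) and MICAL1 (3.18) followed. In that group LIMA1 overlapped MICALL1, and each of ASAP1, PDLIM7 and PDLIM5 overlapped the next gene in the order.

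**Figure D4:**
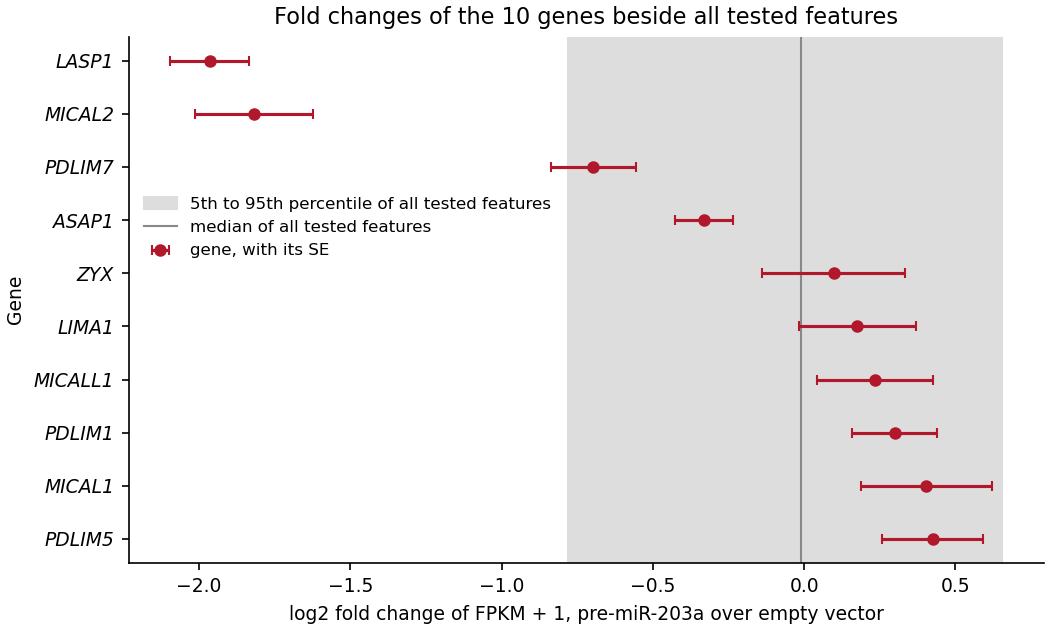
Log2 fold change of FPKM + 1, pre-miR-203a over empty vector, with SE for each of the 10 genes, over a grey band for the 5th to 95th percentile of all tested features (−0.78 to 0.65) and a line at their median (−0.01). LASP1 and MICAL2 lie left of the band and the other 8 inside it.

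Among the 3 pre-miR-203a libraries, library 2 had the lowest MIR203A level (3699 FPKM) and also the lowest levels of LASP1 (12.7 FPKM), MICAL2 (2.21 FPKM) and PDLIM7 (9.02 FPKM). Library 3 had the highest MIR203A level and the highest levels of the same 3 genes. Library 2 was also the lowest for LIMA1 (35.1 FPKM), PDLIM1 (66.1 FPKM) and PDLIM5 (16.8 FPKM), whose means were not lower with pre-miR-203a. It was not the lowest for MICAL1, MICALL1, ZYX and ASAP1. With 3 libraries these are values only, and MIR203A counts reads over the 110-base hairpin, with no separate level of the mature miRNA. The protein-coding genes whose log2(FPKM + 1) went most closely with LASP1 over the 6 libraries were RIOX1 (Pearson r = 0.999), CFAP20 (0.996) and SIX4 (0.995), of 10204 ranked. Those closest to MICAL2 were STEAP1 (r = 0.999), SPRY4 (0.999) and TUSC3 (0.997). The libraries fall into the groups, so that 7.56% of the ranked genes had r above 0.9 with LASP1 and 6.23% with MICAL2.

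The relatives and partners of these genes were taken from 9 lists. Of 139 tested genes in them beside the 10, 13 rose and 8 fell (15.1% called, against the 15.8% of all tested features), and their median log2 fold change was 0.01, beside −0.01 over all tested features.

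NEBL rose to 8.62, 6.79 and 3.52 FPKM in the pre-miR-203a libraries, against 1.91, 1.45 and 0.95 FPKM in the empty-vector libraries. NEBL encodes nebulette and the LIM-nebulette protein LASP2, the closest relative of LASP1, which the gene-level values cannot tell apart. The groups did not overlap, and the log2 fold change came to 1.54 ± 0.29 (SE; adjusted p = 0.013, limma). A 7mer-m8 and 4 7mer-A1 matches lie in its longest 3′ UTR (5774 nt). The summed FPKM of LASP1 and NEBL was 21.5 ± 2.48 in pre-miR-203a cells and 63.2 ± 1.34 in empty-vector cells (SD, n = 3 each). NEBL made up 29.1% ± 10.6 of it in pre-miR-203a cells and 2.29% ± 0.81 in empty-vector cells. NEBL was the only called gene of the 8 tested LASP family and partner genes beside the 10, a list with 3 genes at an unadjusted limma p under 0.05 and a median log2 fold change of −0.08. Beside NEBL, the genes at that p were PALLD and PRKACB. Their log2 fold changes were −0.36 ± 0.14 and −0.38 ± 0.13 (SE; adjusted p of 0.14 and 0.11, limma). Neither was called, nor were the LASP1 kinases ABL1 and ABL2.

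Of 6 tested MICAL relatives and methionine sulfoxide reductases 1 rose and 0 fell (median log2 fold change 0.11). This was MSRB1, which reduces the actin methionines that MICAL proteins oxidise, at 16.8 ± 6.85 FPKM in pre-miR-203a cells and 7.76 ± 0.40 FPKM in empty-vector cells (SD, n = 3 each). This is a log2 fold change of 0.96 ± 0.24 (SE; adjusted p = 0.036, limma). MICALL2 was not called, with a log2 fold change of 0.02 ± 0.42 (SE; adjusted p = 0.99, limma). Of 5 tested zyxin family genes none was called by limma, with 0 at an unadjusted limma p under 0.05 (median −0.05). Those with the smallest p were FBLIM1, or migfilin (0.37 ± 0.24 SE), and AJUBA (−0.13 ± 0.13 SE), with adjusted p of 0.35 and 0.57 (limma).

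Of 16 tested other cytoskeletal LIM genes 3 rose and 1 fell (median 0.10). The actin-binding LIM protein gene ABLIM3 averaged 64.5 ± 8.42 FPKM in pre-miR-203a cells and 32.1 ± 5.81 FPKM in empty-vector cells (SD, n = 3 each; log2 fold change 0.99 ± 0.17 SE; adjusted p = 0.0096, limma). LIMK1 and LIMK2, the kinases that phosphorylate and so inhibit cofilin, had log2 fold changes of 0.80 ± 0.17 and 0.69 ± 0.13 (SE; adjusted p of 0.019 and 0.012, limma). LIMCH1, an activator of nonmuscle myosin, fell by 0.58 on the log2 scale (SE 0.14; adjusted p = 0.034, limma).

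Of 23 tested ASAP1 relatives and partners 1 rose and 2 fell (median −0.02). ASAP3, a close relative of ASAP1, averaged 24.1 ± 3.97 FPKM in pre-miR-203a cells and 9.94 ± 3.87 FPKM in empty-vector cells (SD, n = 3 each; log2 fold change 1.26 ± 0.29 SE; adjusted p = 0.025, limma). SRC, whose product binds and phosphorylates ASAP1, averaged 7.42 ± 0.51 FPKM in pre-miR-203a cells and 22.6 ± 2.54 FPKM in empty-vector cells (−1.48 ± 0.12 SE; adjusted p = 0.0019, limma). The adaptor gene CRK fell by 0.56 on the log2 scale (SE 0.10; adjusted p = 0.0098, limma).

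Of 49 tested actin filament and focal adhesion genes 2 rose and 5 fell (median −0.01). Those that rose were GSN, which encodes the filament-severing protein gelsolin (1.03 ± 0.16 SE), and FERMT2, a kindlin gene (0.77 ± 0.15 SE). Those that fell were DIAPH3, a formin gene (−1.12 ± 0.18 SE), FSCN1, the gene of the filament bundler fascin (−1.08 ± 0.26 SE), ARPC2 of the ARP complex (−0.65 ± 0.10 SE), MYH10, a nonmuscle myosin heavy chain (−0.65 ± 0.14 SE), and the kindlin gene FERMT1 (−0.41 ± 0.10 SE). Adjusted p ranged from 0.0076 for GSN to 0.031 for FSCN1 (limma). With the replicate number as a block, FERMT1 had an adjusted p of 0.057 (limma).

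MRTF and SRF genes, with target genes, were listed because MICAL2 acts on the actin pool that controls MRTF. The list does not separate SRF targets that need MRTF from others, so its genes are no measure of MICAL2 activity. Of 21 tested 1 rose and 0 fell (median 0.14). FOS averaged 22.0 ± 6.52 FPKM in pre-miR-203a cells and 11.7 ± 1.96 FPKM in empty-vector cells (SD, n = 3 each; log2 fold change 0.84 ± 0.21 SE; adjusted p = 0.036, limma). With the replicate number as a block 2 were called, FOS and EGR1 (0.65 ± 0.12 SE; adjusted p = 0.022, limma). Calls that the block added in other lists included LMO7 and PLXNA3 as higher and SH3KBP1 as lower (adjusted p of 0.028, 0.032 and 0.033, limma). EGR1 and these 3 genes were named after their values were seen. Of 20 tested genes of RAB, EHD, plexin and other proteins listed with the MICAL family 4 rose and 0 fell (median 0.05). They were the kinase gene STK38 (0.81 ± 0.13 SE), RAB8B (0.92 ± 0.17 SE), RAB15 (0.73 ± 0.13 SE) and CASP9 (0.59 ± 0.16 SE), with adjusted p from 0.0086 to 0.045 (limma).

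Of the 21 called list genes, NEBL, ABLIM3, SRC, GSN, DIAPH3, ARPC2 and STK38 were called under all 13 alternatives. The calls of CRK, LIMK2 and RAB8B ended without empty-vector library 1 (adjusted p of 0.054, 0.063 and 0.050, limma) and that of FERMT2 without empty-vector library 2 (0.058). That of RAB15 ended without pre-miR-203a library 1 or empty-vector library 2, and those of LIMK1 and MYH10 without pre-miR-203a library 1, empty-vector library 1 or empty-vector library 2, taken out singly. The calls of MSRB1, LIMCH1 and FOS ended with no filter on low values and without pre-miR-203a library 1 or any empty-vector library, with adjusted p of up to 0.14 (limma). The calls of FSCN1, FERMT1 and CASP9 ended without any library other than pre-miR-203a library 3. Those of FSCN1, CASP9 and ASAP3 ended with no filter, those of CASP9 and ASAP3 with TPM, and that of FERMT1 with equal library medians. The call of ASAP3 also ended without pre-miR-203a library 1 or 2. A 7mer or 8mer in the longest 3′ UTR was present in 3 of the 8 list genes that fell, LIMCH1, CRK and SRC, and in 4 of the 13 that rose, NEBL, ABLIM3, RAB15 and RAB8B. It was present in 35 of the 118 list genes not called (29.7%), beside the 32.8% of tested protein-coding genes, and nothing is read from these shares.

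**Figure D5:**
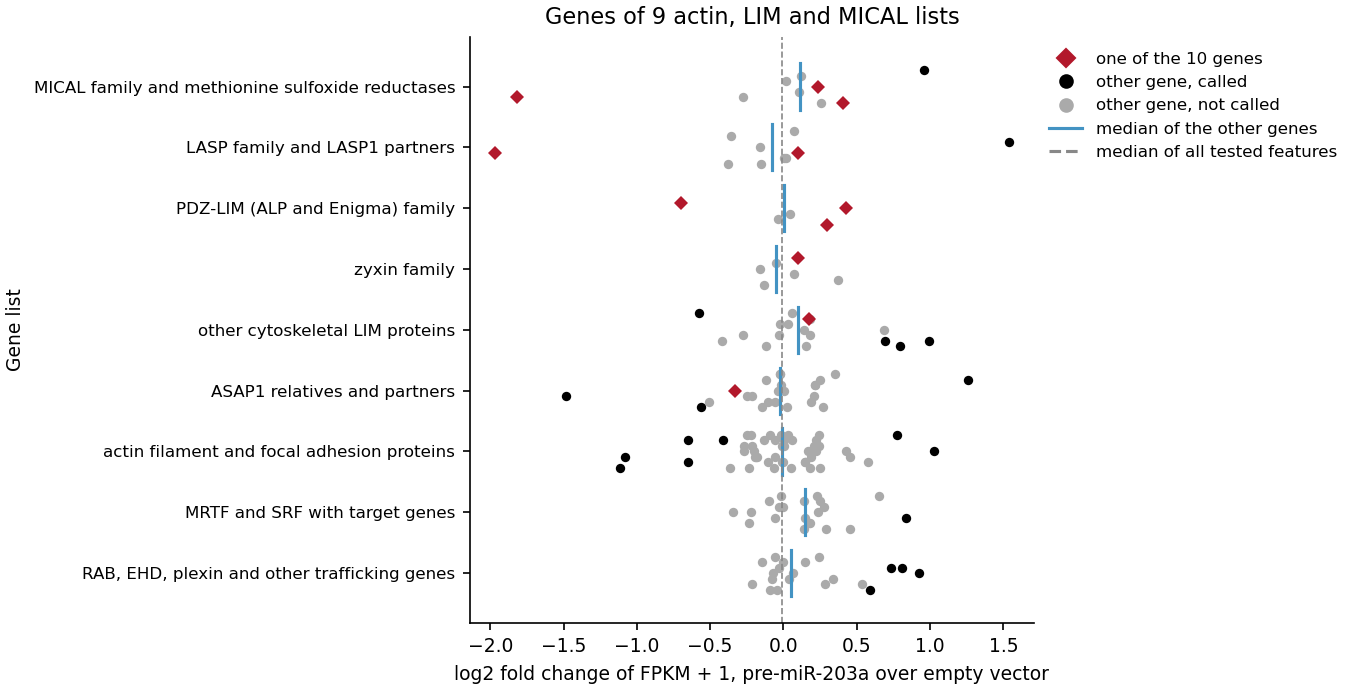
Log2 fold change of FPKM + 1, pre-miR-203a over empty vector, of every tested gene in 9 lists: red diamonds are the 10 genes, black dots other called genes, grey dots genes not called, blue lines medians of the other genes and the dashed line the median of all tested features. LASP1 and MICAL2 lie lowest, NEBL highest, and the medians lie between −0.08 and 0.14.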

How the data were processed

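RNA-seq values of 3 pre-miR-203a and 3 empty-vector MCF10A libraries were used, with groups and replicate numbers taken from the sample titles. The submitters' processing notes name hg38 as build, DESeq2 1.28.1, featureCounts 2.0.0, MultiQC 1.6 and FastQC 0.11.5. Aligner, annotation release and strand setting are not given in the sources used here. Deposited by the authors were FPKM, TPM, a baseMean signal (reads divided by size factors, averaged over libraries), and log2 fold changes with the control on top, with raw and adjusted p-values. These fold changes are printed here with their sign turned.

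Limma 3.58.1 (R 4.3.3) was run on log2(FPKM + 1) with only a group term, a mean trend and robust variances, for the 11271 features reaching 1 FPKM in 3 libraries or more. P-values were adjusted by Benjamini-Hochberg over all of them, and an adjusted p under 0.05 was called. Reads were recovered from FPKM and baseMean, and 100% of values were whole within 0.01. Totals ran from 7632063 to 35084590 reads over listed features, so changes of low genes are least precise in pre-miR-203a library 3. The main fit was also run on simulated reads of independent libraries, which lack the shared deviations of same-numbered libraries given below. Nothing is read from that run.

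Same-numbered libraries deviated together from their group means (correlations of 0.433, 0.269 and 0.321), though no label states a shared batch. The blocked fit is quoted where it alters a call. 3′ UTRs came from GENCODE 29 on GRCh38, from protein-coding transcripts with an annotated stop codon and no mark of an incomplete end. The 10 genes, the lists and the rule for named genes were chosen with earlier results of these data known. The rule names the 10 genes, MIR203A, close family members, up to 5 called genes per direction and list (or the 2 with the smallest p), and the 3 genes most like LASP1 and MICAL2. ABL1, ABL2, PALLD, PRKACB, EGR1, LMO7, PLXNA3 and SH3KBP1 fall outside it, and the coding-sequence search was added after seeing the data. Tables and plots were made in Python 3.11.15 (pandas 2.3.3, numpy 2.4.6, matplotlib 3.10.9).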

Additional observations from a re-analysis of the deposited data

How the results depend on the processing

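Alternatives were other pseudocounts (0.1 and 0.5), no filter, the replicate number as a block, equal library medians, limma-voom on recovered reads, TPM in place of FPKM, and leaving out each library. Over these 13 the log2 fold change was −2.11 to −1.85 for LASP1, −2.21 to −1.61 for MICAL2 and −0.83 to −0.60 for PDLIM7, which describes genes chosen with this contrast known and is no support for them. Without 1 library the count of all called features was 745 to 2257, of higher ones 323 to 919, of lower ones 422 to 1338, and of list genes 10 to 25, against 1778, 743, 1035 and 21 with every library; the low ends came without pre-miR-203a library 1 or empty-vector library 1 or 2. With TPM, and without empty-vector library 3, 434 and 441 were higher. With the replicate block 1970 features were called, and 3 of the 10 genes were called. With the shortest 3′ UTR 0 of the 10 genes held a 7mer, against 4. Signs of small changes turned: without 1 library MICAL3 ranged from −0.00012 to 0.165, MICALL2 from −0.440 to 0.329, PDLIM2 from −0.152 to 0.0354 and PDLIM4 from −0.146 to 0.147. MICALL2 had −0.0108 with TPM, and PDLIM4 had −0.0118 with limma-voom and −0.0531 with TPM. The cause was not tested.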
